A study of Homo sapiens with 45 samples.

Results

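ZHX2 knockdown was examined in hypoxic cells of the first short hairpin RNA experiment of the series. The comparison took 3 libraries from cells with a hairpin against ZHX2 in hypoxia (shZHX2) and 3 libraries from cells with a control hairpin in hypoxia (shCtrl), which are 6 of the 45 libraries of the series. All 60624 genes of the deposited count table entered, and 14903 had enough counts for a test. A further 3 libraries of control-hairpin cells in normoxia belong to the same table and are given for reference. Every library is labelled T47D, an oestrogen receptor positive breast cancer cell line of luminal type. Per the labels, all cells received lentivirus, were selected with hygromycin or puromycin, and grew in RPMI medium. Hypoxia was applied in a workstation, and neither the oxygen level nor its duration is given in the sources used here. The labels do not say which hairpin sequence was used or whether it was 1 hairpin or several, so effects of the hairpin on other transcripts cannot be told apart from those of ZHX2. Nor do they state whether the replicates of a group came from cultures grown apart, so every p-value rests on library-to-library spread alone, and that spread may be technical.

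ZHX2 is a nuclear protein with zinc fingers and homeodomains, related to ZHX1 and ZHX3, and has been described as a repressor of fetal liver genes. In kidney cancer cells that lack VHL it accumulates, because VHL, the substrate receptor of an E3 ubiquitin ligase, marks hydroxylated ZHX2 for destruction. VHL acts in the same way on the alpha subunits of the hypoxia-inducible factors (HIF), which bind DNA with ARNT and switch on genes for glycolysis, vessel growth and acid-base control. The stated aim of the series was to find genes that hypoxia induces and that ZHX2 keeps high in hypoxia.

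Total counts were 17476890 to 18463917 in the shZHX2 libraries, 18128570 to 19480495 in the shCtrl libraries in hypoxia, and 18302801 to 19472484 in normoxia. Reads on the mitochondrial genome made up 11.9% to 12.4% of the counts in shZHX2 libraries and 9.12% to 9.57% in hypoxic shCtrl libraries, against 4.55% to 4.76% in normoxia. Of 11 luminal epithelial markers all 11 were expressed, and their summed level was 28052 to 28337 CPM (the TMM-scaled, depth-adjusted count) in shZHX2 libraries and 59418 to 60113 CPM in shCtrl libraries. Most of that sum was keratin, as KRT8, KRT18 and KRT19 are among the 11. The 4 simple epithelial keratins alone summed to 26296.5 to 26587 CPM in shZHX2 and 57037 to 57731 CPM in shCtrl libraries. The median log2 fold change of the 11 markers was -0.60. The 7 basal markers summed to 4.03 to 5.43 CPM in shZHX2 and 9.38 to 12.8 CPM in shCtrl libraries, with KRT5 and KRT6A at 0 in all 6. The 8 leukocyte and endothelial markers summed to 4.45 to 6.15 CPM in shZHX2 and 8.16 to 10.2 CPM in shCtrl libraries, with PTPRC and PECAM1 at 0. The 8 fibroblast markers summed to 70.02 to 72.7 CPM in shZHX2 and 49.5 to 53.5 CPM in shCtrl libraries, nearly all of it COL1A1, with COL1A2 and PDGFRA at 0.

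A later experiment of the series, called the rescue experiment here, also knocked down ZHX2 in hypoxia, with 3 shZHX2 and 3 shCtrl libraries that both carry an empty vector, and shares no library with the first. Its control cells stood apart from those of the first experiment, although both are labelled T47D. Of all genes, 59 had at least 10 CPM in each rescue shCtrl library and under 0.5 CPM in each first-experiment shCtrl library, and 123 had the opposite pattern. As examples chosen after the values were seen, the cell cycle inhibitor CDKN2A had 0.499, 0.54 and 0.934 CPM in rescue controls and 184, 175 and 172 CPM in first-experiment controls. The secreted oestrogen-induced peptide TFF1 had 4473, 4536 and 4331 CPM in rescue controls against 2.02, 2.28 and 2.55 CPM in first-experiment controls. The myosin light chain gene MYL9 had 0, 0 and 0 CPM in rescue controls against 335, 336 and 347 CPM in first-experiment controls. Over the 13060 genes tested in both tables, the Spearman correlation of mean levels was 0.96 between shZHX2 and shCtrl cells of the first experiment and 0.79 between the shCtrl cells of the 2 experiments. The tables were normalised separately, so such levels are descriptive, and the part of this difference in any result set beside the rescue experiment was not tested.

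The targeted transcript was lower in the knockdown. ZHX2 had 4.91, 3.75 and 6.79 CPM in shZHX2 libraries and 21.6, 18.3 and 16.4 CPM in shCtrl libraries. Every knockdown library lay below every control library, with a log2 fold change of -1.86 (standard error 0.149), which is 3.64-fold lower (edgeR quasi-likelihood test, Benjamini-Hochberg adjusted p = 3.60e-10). In normoxic shCtrl cells ZHX2 had 16.5, 15.9 and 18.3 CPM. Its relative ZHX3 rose by a log2 fold change of 0.78 (adjusted p = 1.72e-17), with 48.5, 47.2 and 51.4 CPM in shZHX2 and 28.6, 28.8 and 28.1 CPM in shCtrl libraries. ZHX1 rose by 0.40 on the log2 scale (adjusted p = 0.00445), but with correction for GC content and length the change was 0.18 and did not pass (adjusted p = 0.2). The rescue experiment had a ZHX2 log2 fold change of -2.22 (standard error 0.0671), with 7.07, 6.24 and 7.27 CPM in shZHX2 and 31.2, 34.3 and 30.5 CPM in shCtrl libraries.

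Of the oxygen-sensing genes, VHL rose most. VHL had 82.3, 94.9 and 96.96 CPM in shZHX2 libraries and 36.7, 38.6 and 38.8 CPM in shCtrl libraries, a log2 fold change of 1.26 (adjusted p = 1.14e-28), and no libraries of the groups overlapped. The prolyl hydroxylase EGLN3 rose by 0.95 on the log2 scale and HIF1A by 0.67, while ARNT fell by 0.58. HIF1A had 8.03, 7.62 and 8.45 CPM in shZHX2 and 5.21, 5.88 and 4.08 CPM in shCtrl libraries in hypoxia, and 71.3, 71.9 and 74.3 CPM in normoxia. EPAS1, EGLN1, EGLN2 and HIF1AN did not pass the test, with log2 fold changes of -0.0236, 0.21, 0.0947 and 0.0386, and turned to 0.21 in EPAS1 with library size alone and to -0.14 in HIF1AN with the GC and length correction. These 4 calls depended on the processing, since all 4 passed with library size alone, EGLN1 also with the replicate block, the 6 hypoxic libraries alone, with DESeq2 size factors, and without shZHX2 replicate 3 or without shCtrl replicate 2, HIF1AN with DESeq2 size factors, and EGLN2 with the GC and length correction (0.21).

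Across the genes tested, 5006 were higher in shZHX2 than in shCtrl cells at an adjusted p under 0.05 (33.6%) and 4955 were lower (33.2%). With mitochondrial genes left out, 5009 were higher and 4958 lower. At least 2-fold, 1372 were higher (9.21%) and 1436 were lower (9.64%). The counts of gene lists given below stand beside these shares of all genes tested. Of the 9961 genes called, 9481 had libraries that did not overlap between the groups, and the median log2 fold change of all genes tested was 0.022. Passing the test with 3 libraries in each group largely selects for such separation, and the share over all genes tested is not given.  The balance depended on scaling. With library size alone in place of TMM factors, all log2 fold changes shifted by a median of 0.23, and 67.6% of calls were higher, against 50.3% with TMM.

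**Figure D1:**
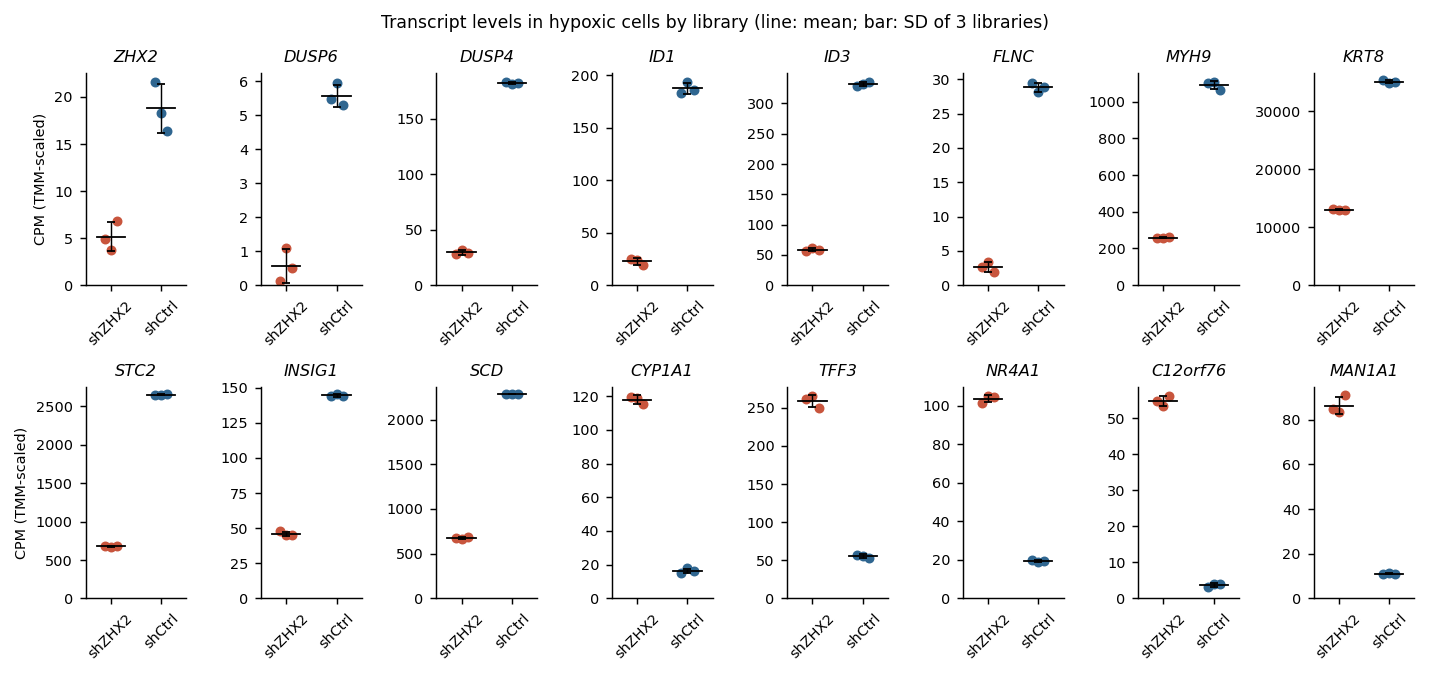
Levels of 16 transcripts in the 6 hypoxic libraries of the first experiment, in TMM-scaled CPM on linear axes that start at 0, with shZHX2 in red and shCtrl in blue. Points are libraries, the line is the mean and the bar the SD of 3 libraries. In each panel the 3 shZHX2 libraries lie apart from the 3 shCtrl libraries, and ZHX2 itself averaged 5.15 CPM in shZHX2 and 18.8 CPM in shCtrl cells.

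The largest rises and falls described next come from named genes that passed the test, averaged 1 or more in log2 CPM and did not overlap between groups. CTNND2, the delta-catenin of neuronal junctions, had 5.83, 4.73 and 6.57 CPM in shZHX2 libraries and 0.391, 0.316 and 0.365 CPM in shCtrl libraries. It was low in both groups and 15.7-fold higher in the knockdown (log2 fold change 3.97, standard error 0.293, adjusted p = 1.88e-18). C12orf76, an uncharacterised gene, had 54.7, 53.4 and 56.2 CPM in shZHX2 and 3.19, 4.11 and 4.14 CPM in shCtrl libraries, a log2 fold change of 3.84. MAN1A1, a Golgi mannosidase that trims N-linked glycans, had 84.6, 83.4 and 90.8 CPM in shZHX2 and 11.01, 11.3 and 10.8 CPM in shCtrl libraries. The 3 knockdown libraries were close together and 7.80-fold above the controls (adjusted p = 7.59e-43). WFIKKN1, a secreted protein that binds growth and differentiation factors of the TGF-beta family, had 44.8, 42.98 and 43.1 CPM in shZHX2 and 4.56, 5.38 and 5.78 CPM in shCtrl libraries. Its log2 fold change was 3.05, and in the rescue experiment 2.48 at lower levels.

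The synaptic vesicle protein gene SYP had 59.3, 53.3 and 58.7 CPM in shZHX2 and 8.86, 7.97 and 8.64 CPM in shCtrl libraries (log2 fold change 2.75). LINGO4 rose by 3.68 on the log2 scale and MPZL3 by 2.86. Metabolic genes among the 15 largest rises were PPP1R3E, a glycogen-targeting subunit of protein phosphatase 1, at 2.73, and GPD1L, a relative of glycerol-3-phosphate dehydrogenase, at 2.73. EAF1, a partner of the elongation factor ELL, rose by 2.62, the zinc finger gene ZNF805 by 2.57 and ARL6, a small GTPase of the ciliary membrane, by 2.52. The pseudogene SEPTIN7P13 rose by 2.62, but its reads may be shared with its near-identical parent gene. By absolute level the largest increases were in CALR, a calcium-binding chaperone of the endoplasmic reticulum, TP53I11, the actin-binding CORO1B, the glycolytic isomerase GPI, C1orf43 and RPL4. CALR had 3869, 3881 and 3841 CPM in shZHX2 and 2545, 2587 and 2611 CPM in shCtrl libraries, a log2 fold change of 0.58. TP53I11 had 1556, 1587 and 1576 CPM in shZHX2 and 905, 908 and 901 CPM in shCtrl libraries, a log2 fold change of 0.80. The groups did not overlap for either gene, which was a condition for naming it here.

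Among these genes the largest fall was in ACTL8. ACTL8, an actin-like gene normally expressed in testis, had 0.404, 0.381 and 0.331 CPM in shZHX2 libraries and 10.7, 11.1 and 9.73 CPM in shCtrl libraries, 27.9-fold lower in the knockdown (log2 fold change -4.80, standard error 0.225, adjusted p = 2.60e-27). Its log2 fold change in the rescue experiment was -3.66. IVL, involucrin of the cornified envelope, had 0.751, 0.544 and 0.331 CPM in shZHX2 and 8.14, 8.03 and 9.18 CPM in shCtrl libraries (log2 fold change -3.96). SIPA1, a GTPase-activating protein for Rap, had 7.45, 7.89 and 8.34 CPM in shZHX2 and 65.8, 63.7 and 66.5 CPM in shCtrl libraries (log2 fold change -3.05). Knockdown libraries of these 3 genes lay well below all control libraries, and lack of overlap was a condition for naming them here. PLLP, plasmolipin, a membrane protein of myelin and epithelia, fell by 3.50 on the log2 scale, the keratinocyte transporter gene NIPAL4 by 3.97 and the homeobox gene NKX2-8 by 3.54. GDPD3, STK32B, ANKRD2 and SHF had log2 fold changes of -3.25, -3.22, -3.21 and -3.05. ABCC13, a pseudogene of the ABC transporters, had -3.24. ANGPT1, the ligand of the endothelial receptor TIE2, had 0, 0.326 and 0.442 CPM in shZHX2 and 1.63, 2.66 and 2.74 CPM in shCtrl libraries in hypoxia, and 16.9, 18.5 and 18.8 CPM in normoxia. It was thus far below its normoxic level in both hypoxic groups, with a log2 fold change of -3.14 between them.

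By absolute level the largest decreases were in KRT8, ACTB, KRT19, ENO1, RPS2 and HSPB1. KRT8, keratin 8 of simple epithelia, had 13136, 13054 and 12980.2 CPM in shZHX2 and 35453, 34867 and 35044 CPM in shCtrl libraries. In normoxia it had 13231, 12358 and 12642 CPM, so the knockdown level in hypoxia lay beside the normoxic one. ACTB, the beta-actin gene often used as a reference, had 4215, 4251 and 4304 CPM in shZHX2 and 11051, 11074 and 11121 CPM in shCtrl libraries, a log2 fold change of -1.38 (adjusted p = 3.05e-48). HSPB1, a small heat shock protein, had 1959, 2127 and 2002 CPM in shZHX2 and 5208, 5128 and 5215 CPM in shCtrl libraries. These genes, like ribosomal protein genes, have processed copies in the genome, and how the authors' counting treated shared reads is not given in the sources used here.

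Cholesterol is made from acetyl-CoA through mevalonate and squalene, under control of SREBP-2, which SCAP escorts to the Golgi when sterols are low and INSIG proteins retain when they are high. Of the 20 enzymes of this route tested, 19 were lower in shZHX2 cells, 0 were higher, and 8 were lower at least 2-fold. Their median log2 fold change was -0.84, beside 0.022 for all genes tested. The summed level of the 20 transcripts was 2651 to 2671 CPM in shZHX2 libraries and 5094 to 5133 CPM in shCtrl libraries.

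The promoters of 4 of these sterol genes are shown because the CCAAT box, bound by the factor NF-Y that acts beside SREBP at sterol genes, occurs at least 1 time in each. Each line gives bases before the annotated start site in RefSeq (GRCh38.p14), 5′ to 3′ along the gene, with CCAAT on either strand in capitals. FDPS (farnesyl diphosphate synthase) lies at chr1:155308676-155308865, MVK (mevalonate kinase) at chr12:109573574-109573763, MSMO1 (a sterol demethylase) at chr4:165327469-165327658 and INSIG1 at chr7:155297668-155297877, all on the plus strand.
FDPS: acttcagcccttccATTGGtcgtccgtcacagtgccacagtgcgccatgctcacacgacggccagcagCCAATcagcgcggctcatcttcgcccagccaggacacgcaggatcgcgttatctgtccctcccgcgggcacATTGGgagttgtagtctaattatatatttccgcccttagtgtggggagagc
MVK: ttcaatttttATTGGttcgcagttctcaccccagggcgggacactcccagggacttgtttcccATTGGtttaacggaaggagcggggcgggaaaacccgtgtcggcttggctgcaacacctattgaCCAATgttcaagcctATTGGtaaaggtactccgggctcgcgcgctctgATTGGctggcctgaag
MSMO1: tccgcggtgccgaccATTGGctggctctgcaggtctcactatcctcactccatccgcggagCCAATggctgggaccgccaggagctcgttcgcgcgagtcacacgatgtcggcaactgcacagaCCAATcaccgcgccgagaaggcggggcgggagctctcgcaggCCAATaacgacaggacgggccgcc
INSIG1: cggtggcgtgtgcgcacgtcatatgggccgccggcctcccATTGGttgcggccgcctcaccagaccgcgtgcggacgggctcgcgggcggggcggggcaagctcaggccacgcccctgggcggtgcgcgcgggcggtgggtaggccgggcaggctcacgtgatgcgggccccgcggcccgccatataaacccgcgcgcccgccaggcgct
The stretches hold 3 copies of the motif in FDPS, 5 in MVK, 4 in MSMO1 and 1 in INSIG1. In windows of 300 bases (250 before to 50 after the first listed start), CCAAT stood on either strand in 12 of the 15 cholesterol enzymes with a window (80%) and in 36.5% of the 10842 tested genes with a window. It stood in 30.5% of the windows of genes at least 2-fold lower and in 38.2% of those at least 2-fold higher, so the motif was no more frequent among the genes that fell. The sterol regulatory element core CACCCCAC was in none of those 15 windows and in 2.58% of all windows. A match is a description of the letters and not a binding site.

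At the first steps ACAT2, which joins acetyl-CoA units, had 9.76, 7.73 and 6.96 CPM in shZHX2 and 30.9, 29.3 and 31.1 CPM in shCtrl libraries. It had the largest fold change of the route, with all knockdown libraries far below the controls (log2 fold change -1.90, standard error 0.0851, adjusted p = 2.30e-28). HMGCS1, which makes HMG-CoA, had 7.28, 9.09 and 6.96 CPM in shZHX2 and 12.8, 13.3 and 12.5 CPM in shCtrl libraries in hypoxia, against 41.2, 37.9 and 39.8 CPM in normoxia. It fell less, with a log2 fold change of -0.72. MVK had 112, 107 and 109 CPM in shZHX2 and 240.02, 242 and 228 CPM in shCtrl libraries (log2 fold change -1.12). FDPS had 71.7, 67.7 and 75.5 CPM in shZHX2 and 146, 143 and 146 CPM in shCtrl libraries (log2 fold change -1.02). Neither gene had overlapping groups. SQLE, the squalene epoxidase, and FDFT1, squalene synthase, had log2 fold changes of -1.42 and -1.08. In the late steps DHCR7 had 401, 389.9 and 403 CPM in shZHX2 and 811, 799 and 803 CPM in shCtrl libraries. MSMO1 and TM7SF2 had log2 fold changes of -1.14 and -1.01. The desaturase SC5D did not pass the test (log2 fold change -0.10, adjusted p = 0.254), but did with the GC and length correction (-0.28, adjusted p = 0.00136).

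Of 12 genes of sterol control and uptake tested, 7 were lower and 3 higher, with a median log2 fold change of -0.33. INSIG1 had 47.8, 45.1 and 45.3 CPM in shZHX2 libraries and 144, 146 and 144 CPM in shCtrl libraries. The 3 knockdown libraries lay close together and far below the controls, with a log2 fold change of -1.65 (adjusted p = 5.12e-38). MYLIP, a ubiquitin ligase induced by sterols, rose by 1.46, with 19.5, 21.98 and 22.3 CPM in shZHX2 and 8.14, 6.83 and 8.15 CPM in shCtrl libraries. The lysosomal cholesterol exporter NPC1 fell by 1.45 and the lipoprotein receptor SCARB1 by 0.89. SREBF1 and SREBF2, which encode the SREBP factors, had log2 fold changes of -0.40 and -0.39, and SCAP rose by 0.46. The apolipoprotein gene APOE had 624, 644 and 612 CPM in shZHX2 and 1164, 1153 and 1146 CPM in shCtrl libraries (log2 fold change -0.88).

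Of 19 genes of fatty acid synthesis tested, 10 were lower and 7 higher (8 and 8 with library size alone), with a median log2 fold change of -0.33. SCD, the desaturase that makes oleic from stearic acid, had 672, 666 and 687 CPM in shZHX2 libraries and 2288, 2287 and 2287 CPM in shCtrl libraries. It was 3.39-fold lower with libraries in close agreement within groups, and its log2 fold change of -1.76 (standard error 0.0254, adjusted p = 3.77e-53) stood beside -1.78 in the rescue experiment. The desaturase FADS2 fell by 1.23, FADS1 by 1.03, the citrate lyase ACLY by 0.97 and fatty acid synthase FASN by 0.65. ACSS2, LPIN1 and GPAM rose by 0.54, 0.80 and 1.15.

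Of the same 20 enzymes, 14 were lower in the rescue experiment and 5 higher (among them MVK, TM7SF2, NSDHL and EBP), with a median log2 fold change of -0.17. Across all genes tested there, 33.9% were higher and 35.3% lower. INSIG1 had 1147, 1098 and 1117 CPM in shZHX2 and 1684, 1819 and 1804 CPM in shCtrl libraries there (log2 fold change -0.66). NPC1 had a log2 fold change of -1.45. The difference between the experiments was not tested.

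**Figure D2:**
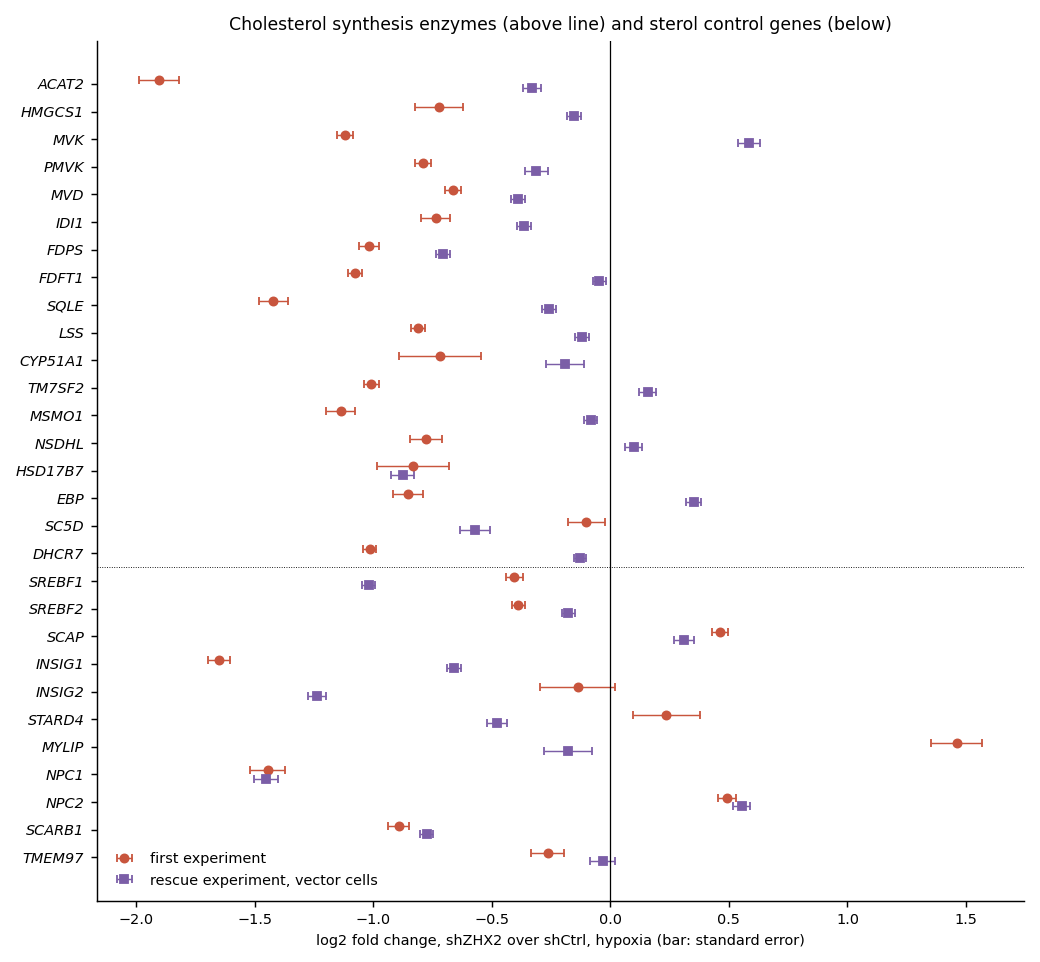
Log2 fold changes of 18 of the 20 cholesterol synthesis enzymes (above the dotted line) and 11 of the 12 sterol control genes (below) for shZHX2 over shCtrl in hypoxia. Circles are the first experiment, squares the rescue experiment, and bars are standard errors of the edgeR fit. In the first experiment all 18 enzymes drawn lie left of 0, from -1.90 to -0.10, and in the rescue experiment 4 of these 18 lie to the right.

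ERK signalling downstream of receptors such as EGFR induces phosphatases and Sprouty or Spred proteins that dampen it. Of 17 genes of this group tested, including receptors, 14 were lower, 2 higher and 9 lower at least 2-fold, with a median log2 fold change of -1.11, the lowest of the lists with at least 9 genes tested. DUSP6, the cytoplasmic ERK phosphatase, had 0.116, 1.09 and 0.497 CPM in shZHX2 libraries and 5.47, 5.95 and 5.29 CPM in shCtrl libraries. It was low in every library and 9.58-fold lower in the knockdown (log2 fold change -3.26, standard error 0.267, adjusted p = 1.84e-14). DUSP4, a nuclear phosphatase of the same family, had 27.8, 31.8 and 29.04 CPM in shZHX2 and 183, 181 and 182 CPM in shCtrl libraries, with no overlap (log2 fold change -2.62). SPRED1, SPRED2 and SPRY2, inhibitors of Ras and Raf activation, had log2 fold changes of -2.41, -1.94 and -1.74. The ETS factor ETV4 had -2.16 and the ephrin receptor EPHA2 -2.23. EGFR fell by 0.97 and ERBB2 by 0.31, while ERBB3 rose by 0.73 and SPRY1 by 0.72. The rescue experiment had 9 of 15 tested genes of the list lower and 1 higher, and DUSP6 had under 1 CPM in every rescue library.

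Immediate early genes moved in both directions, with 7 higher and 6 lower of 16, beside 33.6% higher and 33.2% lower of all genes tested. NR4A1, an orphan nuclear receptor, had 102, 105 and 105 CPM in shZHX2 and 20.2, 18.98 and 19.5 CPM in shCtrl libraries. All 3 knockdown libraries were about 5.30-fold above the controls (log2 fold change 2.41). FOSB rose by 1.77 and FOSL2 by 0.94, while FOS fell by 1.38, MAFF by 1.53 and MYC by 1.06. MYC, a driver of growth and ribosome synthesis, had 69.5, 67.4 and 72.2 CPM in shZHX2 and 146, 143 and 146 CPM in shCtrl libraries, against 53.4, 53.4 and 51.2 CPM in normoxia.

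The ID proteins, which block basic helix-loop-helix factors and are targets of BMP signalling, were all lower. ID1 had 25.4, 24.3 and 18.8 CPM in shZHX2 libraries and 183, 193 and 186 CPM in shCtrl libraries (log2 fold change -3.04, standard error 0.196, adjusted p = 9.59e-06). ID3 had 57.1, 60.9 and 57.5 CPM in shZHX2 and 329, 332 and 336 CPM in shCtrl libraries (log2 fold change -2.51). Both were below the normoxic levels of 63.6 and 161 CPM in the knockdown and above them in hypoxic controls. ID2 and ID4 had -1.45 and -1.02. Other genes of the Notch, BMP and TGF-beta list were mixed, with 4 higher and 9 lower of 18 and a median of -0.0271, which turned to 0.21 when only library size was used. NOTCH2 fell by 1.54 and its ligand gene JAG1 rose by 1.63. Of the Wnt list, 4 of 10 rose and 4 fell, among them the Wnt inhibitor DKK1, at -2.56 here and -3.61 in the rescue experiment, and the Wnt receptor ligase RNF43, at 1.47.

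Genes of the actin cytoskeleton were lower in shZHX2 cells. Of 21 actin crosslinkers and contractile genes tested, 18 were lower and 1 was higher, with a median log2 fold change of -0.54. FLNC, a filamin of muscle, had 2.66, 3.37 and 1.99 CPM in shZHX2 libraries and 29.5, 28.2 and 28.9 CPM in shCtrl libraries (10.8-fold lower, log2 fold change -3.43, standard error 0.124, adjusted p = 7.09e-31). MYH9, the heavy chain of non-muscle myosin IIA, had 254, 257 and 261 CPM in shZHX2 and 1099, 1106 and 1064 CPM in shCtrl libraries (log2 fold change -2.08). FLNA, the major actin crosslinker, had 511, 521 and 526 CPM in shZHX2 and 1315, 1284 and 1255 CPM in shCtrl libraries (log2 fold change -1.31). For each of the 3 genes every knockdown library was below every control library. TAGLN2 fell by 1.42 and ACTN1 by 0.63, whereas TAGLN, transgelin, rose by 1.28. The rescue experiment had 7 of 18 tested genes of the list lower and 10 higher, with a median of 0.23. There MYH9 had a log2 fold change of -1.21, FLNA of 0.24 and ACTB of -0.0644.

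Targets of YAP and TEAD, the factors that respond to cell tension, were lower in 8 and higher in 3 of 12 cases. CCN1, a secreted matrix protein, had 35.5, 34.1 and 33.7 CPM in shZHX2 and 144, 142 and 137 CPM in shCtrl libraries (log2 fold change -2.03, and -1.66 in the rescue experiment). CCN2, connective tissue growth factor, had 3 counts in the shZHX2 libraries together and 127 in the shCtrl libraries. The ratio of the summed counts was 47.9-fold lower in shZHX2, with an exact 95% counting interval of 16.01 to 235. YAP1 rose by 0.16 (not past the test at 0.0358 with the GC and length correction), and WWTR1, which encodes TAZ, did not pass the test (-0.0731, 0.16 with library size alone, and -0.24 and past the test with the GC and length correction).

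Adhesion and matrix genes were mixed. Of 13 genes of the mesenchymal and matrix list tested, 6 were lower and 2 higher. L1CAM, an adhesion molecule, had 39.3, 35.1 and 42.1 CPM in shZHX2 and 203, 200.4 and 198 CPM in shCtrl libraries (log2 fold change -2.37). Fibronectin, FN1, went the other way, with 32.5, 29.7 and 31.4 CPM in shZHX2 and 8.66, 7.28 and 7.66 CPM in shCtrl libraries (log2 fold change 1.99). The integrin subunits ITGA5 and ITGB1 fell by 2.11 and 1.48, CCN5 by 2.45 and TGFB1 by 1.43. TWIST1 rose by 0.86. SNAI2, ZEB1 and ZEB2, which drive epithelial to mesenchymal transition, had 0 counts in all 6 libraries, and VIM stayed under 0.5 CPM.

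Keratins and cornified envelope genes were lower in nearly all tested members. All 4 simple epithelial keratins were lower (median log2 fold change -1.21). KRT18 had 1729, 1737 and 1707 CPM in shZHX2 and 4489, 4455 and 4557 CPM in shCtrl libraries, KRT7 fell by 1.03 and KRT19 by 0.60. All 3 basal keratins tested and 7 of 8 hair and other keratins were lower, KRT23 by 1.93 and KRT80 by 0.82, and KRT10 did not pass (log2 fold change -0.73, adjusted p = 0.0542), although it did in a fit of the 6 hypoxic libraries alone (adjusted p = 2.33e-06) and with DESeq2 (adjusted p = 0.0216). Of 17 cornified envelope genes 6 passed the filter on low counts and all 6 were lower (5 lower and 1 higher with library size alone, 5 lower with the GC and length correction), including TGM1, the transglutaminase that crosslinks the envelope, by 1.78 and the calcium-binding S100A9 by 2.55, and 5 had 0 counts in all 6 libraries. Of 7 desmosome genes tested 6 were lower, JUP, plakoglobin, by 0.64 and PKP3 by 0.90, and desmoplakin, DSP, rose by 0.62. PKP1 had 1 count in shZHX2 and 34 in shCtrl libraries, 38.4-fold lower with an interval of 6.45 to 1562. Of 17 genes of adherens and tight junctions 8 were lower and 3 higher, but 6 and 8 with library size alone. E-cadherin, CDH1, had 322, 313 and 318 CPM in shZHX2 and 437, 447 and 446 CPM in shCtrl libraries (log2 fold change -0.48, and -1.07 in the rescue experiment). CLDN1 and NECTIN2 both fell by 0.89. All 4 simple keratins were also lower in the rescue experiment, KRT8 by 0.59 and KRT18 by 1.00. Basal keratins were split there, 4 higher and 2 lower of 7, and 2 of the 3 tested in both experiments had opposite calls. Hair and other keratins had 2 higher and 3 lower of 5 there, and cornified envelope genes 0 higher and 6 lower of 8.

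Genes that hypoxia induces moved in both directions, as did all genes tested (33.6% higher and 33.2% lower). The normoxic level is given beside each, and the comparisons with normoxia and with shZHX2 share the hypoxic shCtrl libraries. Of 27 hypoxia-induced genes outside glycolysis, 12 were higher and 8 lower in shZHX2 cells (17 and 7 with library size alone), with a median log2 fold change of 0.0706. CA9, carbonic anhydrase 9 and a sensitive HIF target, had 23.3, 25.5 and 23.9 CPM in shZHX2 and 24.4, 23.2 and 22.99 CPM in shCtrl libraries in hypoxia, against 0, 0 and 0.0434 CPM in normoxia. Its groups overlapped in hypoxia (log2 fold change 0.0450, adjusted p = 0.646), although with library size alone a log2 fold change of 0.28 passed (adjusted p = 0.00288). VEGFA, the vascular growth factor, had 479, 464 and 455 CPM in shZHX2 and 242, 248 and 239.6 CPM in shCtrl libraries, against 24.2, 22.2 and 21.99 CPM in normoxia. It was higher still in the knockdown (log2 fold change 0.94). NDRG1, a stress-responsive gene, had 804, 804 and 816 CPM in shZHX2 and 492, 485 and 477 CPM in shCtrl libraries, against 6.10, 6.45 and 7.59 CPM in normoxia (log2 fold change 0.74 between the hypoxic groups).

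Other oxygen-responsive genes fell. STC2, stanniocalcin 2, had 685, 674 and 683 CPM in shZHX2 and 2653, 2648 and 2659 CPM in shCtrl libraries, and 1196, 1162 and 1199.8 CPM in normoxia. The knockdown level in hypoxia lay under the normoxic one (log2 fold change -1.96 between the hypoxic groups, standard error 0.0249, adjusted p = 9.52e-56). ANGPTL4, a secreted inhibitor of lipoprotein lipase, had 363, 358 and 356 CPM in shZHX2 and 830.002, 819 and 811 CPM in shCtrl libraries, and 29.7, 23.5 and 25.6 CPM in normoxia (log2 fold change -1.19). CITED2, a feedback inhibitor of HIF at its coactivators, had 279, 293 and 288 CPM in shZHX2 and 581, 623 and 612 CPM in shCtrl libraries, and 97.7, 93.5 and 101 CPM in normoxia (log2 fold change -1.08). These 2 genes stayed above their normoxic levels in all shZHX2 libraries. CA12 fell by 1.28, BHLHE40 by 0.68 and ADM, adrenomedullin, by 0.48.

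Of 20 genes of glucose uptake and glycolysis, 14 were lower and 6 higher (9 and 6 with library size alone), with a median log2 fold change of -0.24, which was -0.00471 with library size alone. Hexokinase 2, HK2, had 155, 157 and 163 CPM in shZHX2 and 60.7, 58.7 and 61.6 CPM in shCtrl libraries, against 17.4, 17.9 and 18.3 CPM in normoxia (log2 fold change 1.39). PFKL, the liver form of phosphofructokinase, had 610.2, 607 and 607 CPM in shZHX2 and 1242, 1196 and 1194 CPM in shCtrl libraries, against 546, 539.6 and 527 CPM in normoxia (log2 fold change -0.99). The lactate exporter SLC16A3 fell by 0.78, ENO1 by 0.68, ALDOA by 0.65 and TPI1 by 0.49, while PFKM, ENO2 and PFKFB4 rose by 0.62, 0.83 and 0.33. Smaller changes passed the test as well, PGK1 and LDHA with log2 fold changes of -0.19 and -0.21 (0.03997 and 0.0208 with library size alone), and the glucose transporter SLC2A1 rose by 0.17. In the rescue experiment 16 of 21 genes of glucose uptake and glycolysis were lower and 3 higher, with a median of -0.23. Of 28 genes of the hypoxia list tested in the rescue experiment 24 were lower and 2 higher, with a median of -0.79. Across all genes tested there, 33.9% were higher and 35.3% lower. There NDRG1 had a log2 fold change of -0.89, VEGFA of -0.35, EGLN3 of -0.76, ANGPTL4 of -1.33 and CITED2 of -1.09.

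**Figure D3:**
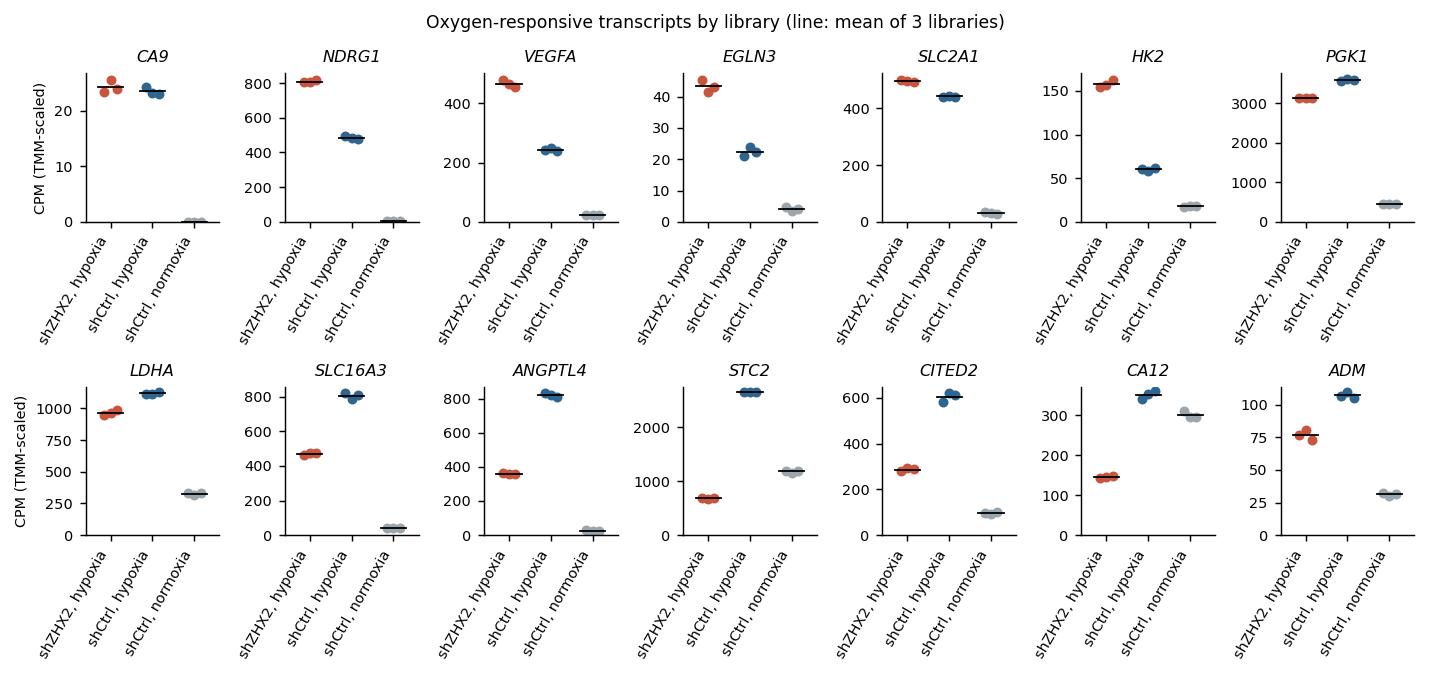
Levels of 14 oxygen-responsive transcripts in TMM-scaled CPM on linear axes that start at 0, by library, for shZHX2 cells in hypoxia, shCtrl cells in hypoxia and shCtrl cells in normoxia, with the line at the mean of 3 libraries. VEGFA, NDRG1, EGLN3 and HK2 were highest in shZHX2 cells, STC2 and CA12 were lowest there, and CA9 was at a similar level in both hypoxic groups (24.3 CPM in shZHX2 and 23.5 CPM in shCtrl cells).

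Oestrogen receptor targets and luminal factors were mixed, as were all genes tested (33.6% higher and 33.2% lower). ESR1, the oestrogen receptor gene, had 56.6, 57.8 and 57.3 CPM in shZHX2 and 66.4, 69.5 and 66.1 CPM in shCtrl libraries (log2 fold change -0.23, and 0.000504 with library size alone), and the list of 23 receptor and target genes had 10 higher and 9 lower, which became 14 and 4 with library size alone. TFF3, a secreted trefoil peptide, had 262, 265 and 249.97 CPM in shZHX2 and 57.6, 55.4 and 52.6 CPM in shCtrl libraries. The knockdown libraries were 4.70-fold higher (log2 fold change 2.23, adjusted p = 3.15e-44), and in the rescue experiment the log2 fold change was 1.74. TFF1 rose by 2.43 at a low level, the chemokine CXCL12 by 1.00 and the cadherin CELSR2 by 1.76. Among luminal factors GATA3 had 448, 453 and 467 CPM in shZHX2 and 879, 882 and 900.1 CPM in shCtrl libraries (log2 fold change -0.96, and -0.91 in the rescue experiment). TRPS1, a GATA-type repressor, fell by 1.21 and XBP1 by 0.73, whereas the ETS factor ELF5 rose by 1.19. FOXA1 did not pass the test (0.0444), but did with library size alone (0.28).

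CYP1A1 encodes a cytochrome P450 that the aryl hydrocarbon receptor induces through elements with the core GCGTG, together with ARNT, the partner it shares with HIF. The bases before its start, at chr15:74725529-74725678 on the minus strand (RefSeq, GRCh38.p14), are shown with that core in capitals.
CYP1A1: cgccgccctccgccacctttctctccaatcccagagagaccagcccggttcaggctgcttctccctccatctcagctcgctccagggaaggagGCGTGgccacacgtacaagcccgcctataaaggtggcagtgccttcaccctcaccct
The core occurs 1 time here, and on either strand in 51.1% of all windows of 300 bases. This match describes the letters only, and whether the receptor acts through it was not tested. CYP1A1 had 119.6, 119 and 115 CPM in shZHX2 libraries and 15.1, 17.8 and 15.997 CPM in shCtrl libraries, against 1.16, 1.71 and 1.95 CPM in normoxia. The knockdown libraries were 7.23-fold above the hypoxic controls (log2 fold change 2.85, standard error 0.0652, adjusted p = 1.52e-42). CYP1A2, from low counts, rose by 3.83, while CYP1B1, another classical target, fell by 0.91. The receptor gene AHR rose by 0.55, which was 0.24 and did not pass with the GC and length correction. In the rescue experiment CYP1A1 had 1721, 1649.8 and 1743 CPM in shZHX2 and 1725, 1727 and 1761 CPM in shCtrl libraries, with overlapping groups (log2 fold change -0.0277, adjusted p = 0.33).

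Antioxidant and iron genes also split. Of 12 NRF2 targets and regulators tested 5 were higher and 6 lower. TXNRD1, thioredoxin reductase, had 172, 172 and 179 CPM in shZHX2 and 70.02, 76.2 and 72.1 CPM in shCtrl libraries (log2 fold change 1.26). OSGIN1 had 59.5, 62.02 and 58.6 CPM in shZHX2 and 235, 238 and 227 CPM in shCtrl libraries (log2 fold change -1.96). HMOX1, haem oxygenase, fell by 1.24, ABCC3 by 2.56 and NQO1 by 0.61. The transferrin receptor TFRC fell by 0.81 and the ferritin heavy chain FTH1 by 1.00, while the light chain FTL rose by 0.36. In the rescue experiment 10 of 17 genes of the NRF2 list were higher and 4 lower.

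Proliferation genes were lower. Of 17 genes of replication licensing 16 were lower and 0 higher (median log2 fold change -0.64), of 20 S phase genes 14 and 0 (-0.46), and of 24 mitosis genes 20 and 0 (-0.80). PLK1, a mitotic kinase, had 121, 125 and 126 CPM in shZHX2 and 253, 255 and 262 CPM in shCtrl libraries (log2 fold change -1.05). MCM2, a subunit of the replicative helicase, had 158, 156 and 152 CPM in shZHX2 and 239, 246 and 240.3 CPM in shCtrl libraries (log2 fold change -0.64). MKI67, the proliferation marker, had 10.2, 10.1 and 9.72 CPM in shZHX2 and 15.7, 15.7 and 15.02 CPM in shCtrl libraries in hypoxia, against 118, 127 and 129 CPM in normoxia. Hypoxic cells of both groups thus lay far below normoxic cells, and the knockdown was lower again by 0.63 on the log2 scale. BIRC5, TPX2 and UHRF1 fell by 1.05, 1.18 and 1.01. All 23 mitosis genes tested in the rescue experiment were lower, with a median of -1.35. In bulk RNA fewer cycling cells and less RNA per cell cannot be told apart.

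Among inhibitors of cyclin-dependent kinases, CDKN1A, which encodes p21, had 427, 414 and 431 CPM in shZHX2 and 327, 331 and 335 CPM in shCtrl libraries (log2 fold change 0.36). CDKN1B rose by 0.74 and RB1 by 1.42, but CDKN2A fell by 0.87 and its neighbour CDKN2B by 2.03. Of 18 targets of p53 tested 11 were higher and 4 lower (median 0.26), RRM2B by 1.51, ZMAT3 by 1.44 and MDM2 by 0.81 among the higher ones. In the rescue experiment 18 of 19 p53 targets were higher and 1 lower (median 0.77).

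Stress pathways moved differently from one another. Of 17 chaperones and factors of the unfolded protein response 11 were higher and 3 lower, with a median log2 fold change of 0.37. HSPA5, the chaperone BiP, had 416, 412 and 415 CPM in shZHX2 and 245, 259.7 and 247 CPM in shCtrl libraries (log2 fold change 0.73). EDEM1 and SEL1L, of the pathway that clears misfolded proteins, rose by 1.21 and 0.95. Of 15 genes of the ATF4 amino acid response 9 were lower and 4 higher (median -0.42). PSAT1, of serine synthesis, had 4.45, 3.86 and 4.09 CPM in shZHX2 and 14.2, 13.3 and 18.3 CPM in shCtrl libraries (log2 fold change -1.89). CHAC1, which degrades glutathione, had 3.64, 3.65 and 3.98 CPM in shZHX2 and 12.6, 14.2 and 13.4 CPM in shCtrl libraries (log2 fold change -1.83). For both genes every knockdown library lay below every control library, yet ATF4 itself rose by 0.12 and DDIT3 by 0.82. The rescue experiment had 14 of 16 genes of the list higher (median 0.87), CHAC1 with 23.1, 22.9 and 24.1 CPM in shZHX2 and 1.33, 1.82 and 1.45 CPM in shCtrl libraries. Of 15 heat shock chaperones 11 were lower and 1 higher (6 and 5 with library size alone), HSPD1 being lower by 0.85 and BAG3 by 0.86.

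Immune genes moved in both directions, as did all genes tested (33.6% higher and 33.2% lower). Of 17 interferon-stimulated genes tested 5 were lower and 3 higher, with a median of 0.0103, and 1 of the 21 listed was not matched by name. IFI6 rose by 1.22, and OAS3 and MX1 both fell by 0.76. Of 12 genes of HLA class I presentation 6 were higher and 5 lower, the heavy chains HLA-B and HLA-C falling by 0.59 and 0.54 and B2M, the shared light chain, rising by 0.58. Reads of HLA genes may be split between near-identical relatives. Of 9 genes of the NF-kB list tested 3 were higher and 5 lower, 3 of them 2-fold, and ICAM1, an adhesion molecule, fell by 2.77. CCL2 had 2 counts in shZHX2 and 36 in shCtrl libraries, 20.3-fold lower with an interval of 5.24 to 174. The rescue experiment had 17 of 20 interferon-stimulated genes and 10 of 12 HLA class I genes higher.

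Few genes of chromatin loops, ribosomes or mitochondria changed 2-fold. Of 15 genes of CTCF, cohesin and loop factors 7 were higher and 2 lower (12 and 0 with library size alone), none 2-fold, with a median of 0.24. CTCF had 27.5, 25.03 and 27.3 CPM in shZHX2 and 22.7, 20.6 and 18.2 CPM in shCtrl libraries (log2 fold change 0.38), and the cohesin regulator PDS5B rose by 0.85. Of 75 cytosolic ribosomal proteins 53 were lower, 3 of them 2-fold, and 7 higher (median -0.18), and this turned to 20 lower and 34 higher (median 0.0567) with library size alone. Nuclear subunits of complex I had 13 higher and 17 lower of 35 (median -0.0337, and 0.20 with library size alone). Subunits of complexes II to V had 7 higher and 21 lower of 38 (median -0.14, and 0.10 with library size alone). Of the 13 mRNAs of the mitochondrial genome 7 were higher and 3 lower, MT-CO1, of cytochrome oxidase, by 0.34 upward and MT-ND6 by 0.32 downward (not past the test at -0.0909 with library size alone), and the median of 0.0768 became -0.0244 after correction for GC content and length. In the rescue experiment the loop factors had 0 higher and 13 lower of 15, and the ribosomal proteins 54 higher and 11 lower of 75. Complex I had 25 higher and 4 lower of 35 there, complexes II to V 30 and 2 of 38, and the mitochondrial mRNAs 5 and 3 of 13. The difference between the experiments was not tested for these lists.

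**Figure D4:**
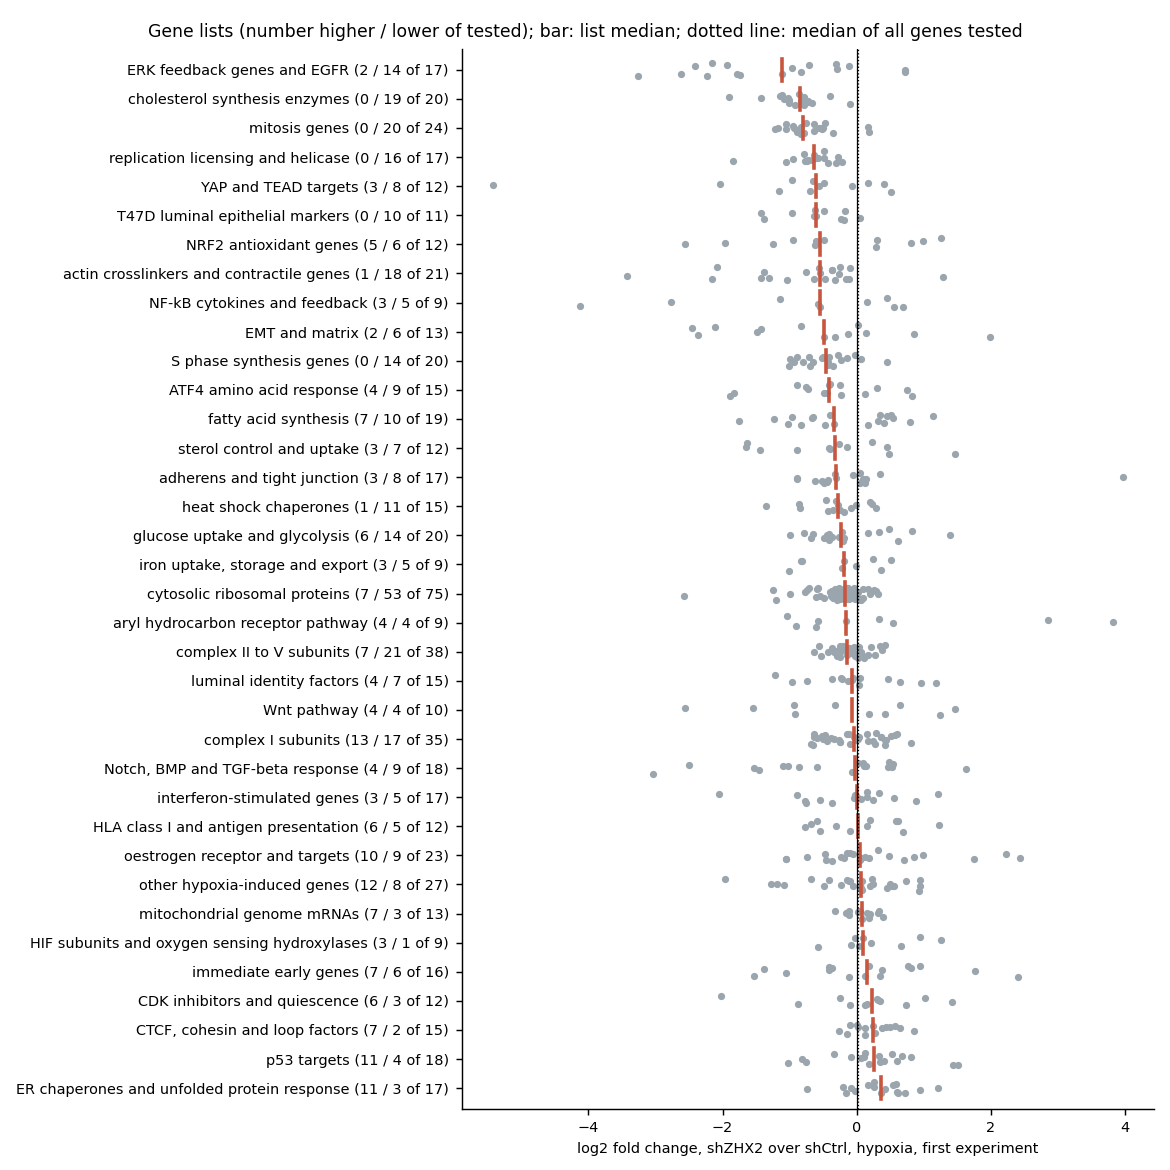
Log2 fold changes for shZHX2 over shCtrl in hypoxia, first experiment, for the lists with at least 9 genes tested, ordered by median from lowest (top) to highest. Points are genes, the red bar is the list's median, the dotted line is the median of all genes tested (0.022), and the numbers in brackets are genes higher and lower of those tested. ERK feedback genes lie lowest at -1.11 and the unfolded protein response highest at 0.37.

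The share of genes that passed the test is given by gene type, with no test between types. Of 12547 protein-coding genes 34.02% were higher and 36.2% lower. Of 531 long intergenic RNA genes 40.9% were higher and 16.8% lower (median log2 fold change 0.40), and of 54 genes inside introns of others 46.3% were higher and 7.41% lower (median 0.77). Of 646 antisense genes 35.6% were higher and 16.3% lower, and of 203 transcribed unprocessed pseudogenes 33.99% and 15.3%. Of 376 processed pseudogenes 6.91% were higher and 30.9% lower. With library size alone 49.9% of the long intergenic RNA genes were higher and 11.9% lower, and 14.9% and 18.4% of the processed pseudogenes. Among genes also tested in the rescue experiment, 40.4% of 324 long intergenic RNA genes were higher there and 10.8% lower, and 33.02% and 17.9% of 324 processed pseudogenes. The strand setting of the counting is not given in the sources used here, so reads of intronic and antisense genes cannot be told apart from those of their host or partner. Across genes the log2 fold change correlated with GC content at a Spearman rho of -0.22 here and 0.26 in the rescue experiment. After correction for GC content and length, 41.6% of the long intergenic RNA genes were higher and 16.2% lower, as were 44.4% and 7.41% of the genes inside introns and 7.71% and 31.1% of the processed pseudogenes.

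Both knockdowns can be set against each other because they share no library. Of the 13060 genes tested in both, 2017 were higher and 2094 lower in both experiments. The 2017 are 40.3% of the genes higher in the first experiment and 41.6% of those higher in the rescue experiment, and the 2094 are 42.3% and 41.5% of the genes lower in each. These shares are of all calls, and 416 rises and 503 falls of the first experiment were not tested in the rescue experiment. Over all genes tested, 33.9% were higher and 35.3% lower in the rescue experiment, against 33.6% and 33.2% in the first. Opposite calls were made for 1236 genes higher in the first experiment (24.7% of those) and for 1378 genes lower in it (27.8%). At least 2-fold, the rescue experiment had 1029 genes higher (7.19%) and 1030 lower (7.2%), of which 196 were also 2-fold higher and 241 also 2-fold lower in the first experiment, while 21 were 2-fold higher in the first and 2-fold lower in the rescue experiment and 40 the reverse. The 196 are 14.3% of the 2-fold rises of the first experiment and 19.05% of those of the rescue experiment, and the 241 are 16.8% and 23.4% of the falls. Across genes the log2 fold changes correlated at Pearson r = 0.29 and Spearman rho = 0.25, over genes that share libraries within each experiment.

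Genes that moved at least 2-fold in both were ranked, after their values were seen, by the smaller of their 2 fold changes. SLC1A1, a glutamate transporter, had 9.99, 11.7 and 12.6 CPM in shZHX2 and 2.67, 2.40 and 2.19 CPM in shCtrl libraries (log2 fold change 2.24, and 1.77 in the rescue experiment). CASTOR2, a relative of the arginine sensor of mTORC1, rose by 1.84 here and 2.08 there. The S6 kinase-like gene RPS6KL1 rose by 1.85 and 2.01, and the lysosomal glycoprotein gene GPNMB by 1.70 and 1.96. Among the falls FGFR4, a fibroblast growth factor receptor, had 26.5, 27.6 and 26.3 CPM in shZHX2 and 110.4, 108 and 103 CPM in shCtrl libraries of the first experiment. In the rescue experiment FGFR4 had 18.98, 20.6 and 21.2 CPM in shZHX2 and 80.6, 76.5 and 72.3 CPM in shCtrl libraries. The log2 fold changes were -1.999 and -1.91, with no overlap of groups in either experiment. SEMA3C, a secreted semaphorin, had -1.97 and -2.36, PTGER3, a prostaglandin E2 receptor, -2.09 and -2.61, JPH2, junctophilin 2, -2.32 and -2.33, and PAPSS2, which makes the sulfate donor PAPS, -2.35 and -2.21. The rescue values of PTGER3 and GPNMB rest on few counts, 16 in shZHX2 and 90 in shCtrl libraries for PTGER3 and 57 and 13 for GPNMB.

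**Figure D5:**
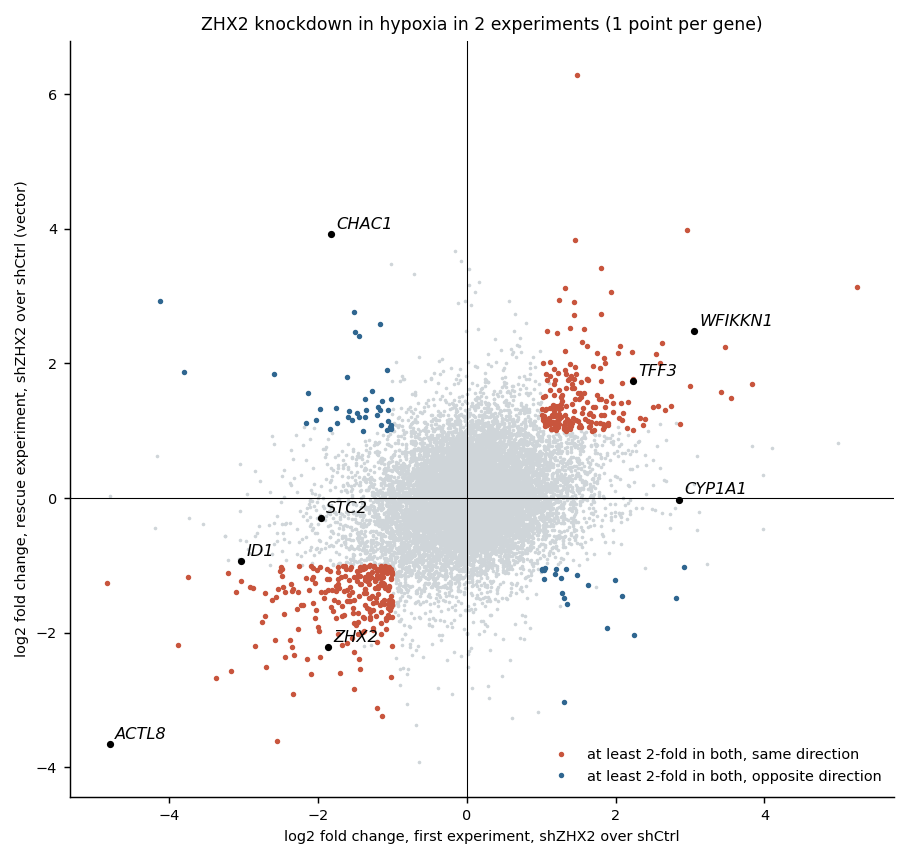
Log2 fold change of each gene tested in both experiments, shZHX2 over shCtrl in hypoxia, first experiment on the x axis and rescue experiment on the y axis. Red points changed at least 2-fold in the same direction in both (437 genes), blue points at least 2-fold in opposite directions (21 genes at the lower right and 40 at the upper left), and grey points are all others, with 8 transcripts of the text marked in black. ACTL8 lies at the lower left and CHAC1 at the upper left.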

How the data were processed

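The deposited table holds raw counts of reads per gene for 9 libraries, and that of the rescue experiment for 15, made by the authors from 150 bp paired-end polyA libraries. Per the submitters' processing notes, HISAT2, featureCounts, FastQC and DESeq2 were used with build hg38, with versions, strand setting and treatment of shared reads not given in the sources used here. Gene types came from GENCODE release 29.

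Counts were filtered (edgeR filterByExpr), scaled with TMM factors and tested with edgeR 4.0.16 (R 4.3.3), a robust quasi-likelihood fit over all 3 groups of the table, with Benjamini-Hochberg adjustment over all genes tested, a threshold of 0.05, and 2-fold as a second limit. CPM values were computed from the deposited counts with the same TMM factors. The test was checked on simulated counts with known changes in a small set of genes, balanced between rises and falls. Far more genes were called in these data, so that check does not bear on the choice of scaling. Standard errors were derived from the fold change and its F statistic. Counting intervals are exact 95% intervals, and they cover counting error only.

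The largest changes named are 15 rises and 15 falls by fold change among genes called at an average log2 CPM of at least 1 with no overlap between groups and no clone-style name, and 6 each way by difference in level, without mitochondrial genes. List members with the largest changes were preferred as examples, and some transcripts are not reported here. The 46 gene lists and the comparison itself were chosen with earlier results of these data known. No replicates were duplicates, since their counts differed by more than sampling noise (chi-square of 1.95 to 3.45 for each degree of freedom). Same-numbered replicates did not deviate together (correlations of -0.014 to 0.0015), so no block was used. Motifs were searched on both strands in windows from 250 bases before to 50 after the RefSeq start. DESeq2 1.42.0, other scalings and filters, correction for GC content and length, and leaving out each library were alternatives.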

Additional observations from a re-analysis of the deposited data

Results flagged for a closer look

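Among the transcripts named in the text there were 49 for which every shZHX2 library lay on one side of its controls in the first experiment and on the opposite side in the rescue experiment. They are set beside 220 named genes with a fit. Over all genes, opposite calls, which is another criterion, were made for 1236 genes higher in the first experiment (24.7% of those). The same held for 1378 genes lower in it (27.8%), so such reversals are not particular to the transcripts named. For each of the 49 the difference was not tested, and the control cells of the experiments differ as described above. All values are log2 fold changes of shZHX2 over shCtrl, the rescue experiment's first and the first experiment's after it.

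In oxygen sensing and glycolysis, NDRG1 had -0.89 against 0.74, EGLN3 -0.76 against 0.95, VEGFA -0.35 against 0.94, HIF1A -0.46 against 0.67, SLC2A1 -0.66 against 0.17, HK2 -0.15 against 1.39 and PFKFB4 -0.23 against 0.33. These 7 genes were higher in the first experiment and lower in the rescue experiment. In lipid metabolism, MVK had 0.58 against -1.12, EBP 0.35 against -0.85, TM7SF2 0.16 against -1.01, NSDHL 0.10 against -0.78 and APOE 0.45 against -0.88. LPIN1 had -1.17 against 0.80, GPAM -0.63 against 1.15, ACSS2 -0.52 against 0.54 and GPD1L -0.45 against 2.73.

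In adhesion, cytoskeleton and receptor signalling, FN1 had -1.21 against 1.99, DSP -0.92 against 0.62, FLNA 0.24 against -1.31, ACTN1 0.31 against -0.63, L1CAM 0.19 against -2.37, NECTIN2 0.20 against -0.89, TGFB1 0.19 against -1.43 and YAP1 -0.43 against 0.16. SPRY1 had -1.32 against 0.72, ERBB3 -0.62 against 0.73, EPHA2 0.35 against -2.23, FOSL2 -0.44 against 0.94 and SIPA1 0.50 against -3.05. KRT10, which did not pass the test in the first experiment, had 1.11 against -0.73.

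In stress and immune genes, CHAC1 had 3.92 against -1.83, PSAT1 0.66 against -1.89, NQO1 0.88 against -0.61, HMOX1 0.81 against -1.24, OSGIN1 0.18 against -1.96, FTH1 0.40 against -1.002, OAS3 0.53 against -0.76, HLA-B 0.42 against -0.59 and HLA-C 0.53 against -0.54. CCL2 had 2.93 in the rescue experiment and only 2 counts against 36 in the first. Among the others, CDKN1B had -1.02 against 0.74, CTCF -0.30 against 0.38, PDS5B -0.35 against 0.85, MT-CO1 -0.37 against 0.34, EAF1 -0.22 against 2.62, PPP1R3E -0.24 against 2.73, RPS2 0.0735 against -0.77 and ZHX1 -0.19 against 0.40. FOXA1 had -0.29 against 0.0444, the second of which did not pass the test.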

How the results depend on the processing

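The ZHX2 log2 fold change kept its direction and its call under every alternative, between -2.12 and -1.67 with 1 library left out and between -1.87 and -1.63 otherwise. With 1 library left out, 4685 to 4787 genes rose and 4797 to 4851 fell, of which 1379 to 1435 rises and 1455 to 1482 falls reached 2-fold, while 3932 to 3996 changed the same way in the rescue experiment, 418 to 446 of them at least 2-fold in both. Over the other alternatives the genes changed the same way in both experiments numbered 3702 (DESeq2) to 4491 (GC and length correction), and 372 to 509 at least 2-fold, the extremes being 2 filters on low counts. With library size alone, 7086 genes rose and 3393 fell, of which 2199 rises and 922 falls reached 2-fold. With a replicate block 4984 genes were higher and 4971 lower. The numbers did not pair the libraries, and of the genes named with a fit the block changed the call of EGLN1 alone. Of 220 named genes with a fit, 204 kept direction and call under all alternatives run. With library size alone, the log2 fold changes of EPAS1, ESR1, LDHA, PGK1 and WWTR1 turned to 0.21, 0.000504, 0.0208, 0.03997 and 0.16, which the shift of the whole scale by 0.23 accounts for by construction. With correction for GC content and length HIF1AN turned to -0.14, also with the block added (-0.13), and the cause was not tested. Depth limits genes of few counts, such as CCN2 and PKP1, to wide ratios.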
